A study of Homo sapiens with 4 samples.

Results

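BCL6 occupancy was examined at 9 genes of the germinal centre programme (MEF2B, MEF2C, LMO2, EZH2, MYBL1, SERPINA9, MME, STAP1 and NEIL1), out of 19974 protein-coding genes (autosomes and X). The genes were taken by name, with earlier results of these data known. A BCL6 peak belonged to a gene when its summit, the base of strongest signal, lay inside the gene or within 50 kb of either end in the RefSeq annotation of GRCh38 (hg38). The data come from SUDHL5, an established line of diffuse large B-cell lymphoma, and belong to work on a bivalent compound that brings acetyltransferases to BCL6. CUT&RUN was used, in which an antibody holds a nuclease at the protein of interest and the DNA that it cuts free is sequenced. Of the 4 samples, 2 are biological replicates of BCL6 CUT&RUN and 2 are IgG controls (normal rabbit IgG). All are of this 1 cell line, and the labels name no treatment. Peak lists of the 2 BCL6 samples were used. The IgG libraries were not used directly here. Whether the authors' peak calling used them as its control is not given in the sources consulted.

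The germinal centre is the site where activated B cells divide rapidly, mutate their immunoglobulin genes and are selected for affinity. BCL6 is a DNA-binding transcriptional repressor that germinal centre B cells require, and it recruits co-repressors to the promoters and enhancers that it occupies. The genes studied here are expressed in germinal centre B cells and include transcription factors, a chromatin modifier, surface and secreted proteins, a signalling adaptor and a DNA repair enzyme. Several are used as markers of lymphomas that arise from these cells.

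Within the windows, replicate 1 held 20 peaks at 8 of the 9 genes and replicate 2 held 8 peaks at 5 of the 9. Across all protein-coding genes, 29.5% had a replicate 1 peak and 23.3% a replicate 2 peak by the same rule. NEIL1 was the gene without a replicate 1 peak, and MEF2B, MYBL1, SERPINA9 and MME were those without a replicate 2 peak. Regions where peaks of both lists overlapped by at least 1 bp, called shared regions here, were found at 2 of the 9 genes, LMO2 and MEF2C, 1 at each, against 10.2% of all protein-coding genes. Within 10 kb the count was 1 of 9 (LMO2), against 5.78%, and within 100 kb it was 3 of 9 (with EZH2), against 15.1%. A further 2 genes, EZH2 and STAP1, had peaks of both lists that did not overlap, so 4 of 9 had peaks of both lists in any arrangement, against 15.6%. With 9 genes chosen by name, these counts describe these genes and were not tested.

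**Figure D1:**
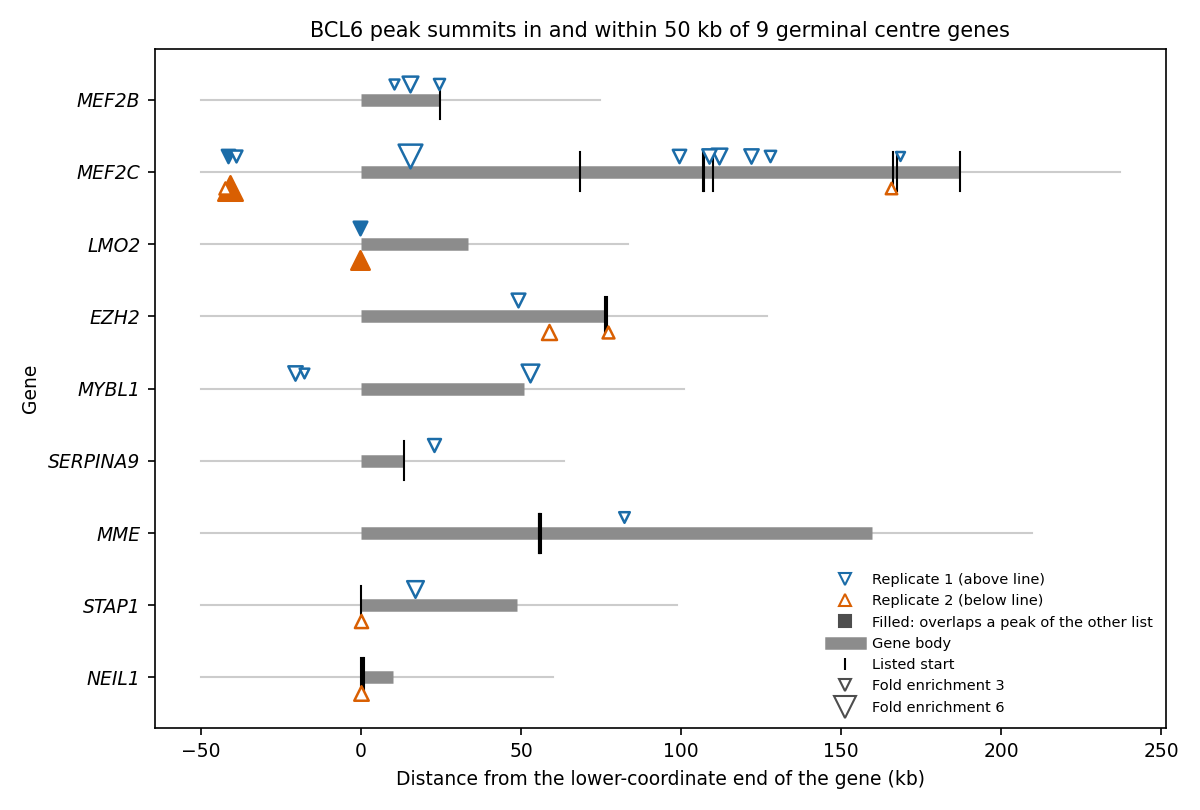
Positions of the 28 BCL6 peak summits in or within 50 kb of the 9 genes, with distance from the lower-coordinate end of each gene in kb on the x axis and 1 gene per row. Downward triangles are replicate 1 and upward triangles replicate 2, their area grows with fold enrichment, filled triangles overlap a peak of the other list, thick bars are gene bodies and ticks are listed transcription starts; the filled symbols lie below the lower end of MEF2C and at the lower end of LMO2 alone.

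The longer a gene, the longer its window, and the median length of the 9 genes was 48.6 kb against 24.2 kb for all protein-coding genes. Per length, the windows of the 9 genes (1.5 Mb in all) held 13.3 replicate 1 peaks per Mb, against 2.56 per Mb over the windows of all protein-coding genes. For replicate 2 the densities were 5.32 and 1.75 peaks per Mb. MEF2C alone held 9 of the 20 replicate 1 peaks and 3 of the 8 replicate 2 peaks. Without it the densities of the other 8 genes were 9.03 and 4.11 peaks per Mb.

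By fold enrichment the peaks at these genes resembled the middle of each list, while their median pileup and −log10 q were lower than those of the lists. The authors' fold enrichment is the summit signal divided by the local background, with 1 added to each. Its median was 3.62 over the 20 peaks of replicate 1 (2.4 to 6.37) and 3.71 over the 8 of replicate 2 (3.07 to 6.58). The medians of the whole lists were 3.55 over 5230 peaks and 3.74 over 3529. Fold enrichment was above the list median for 12 of 20 peaks in replicate 1 and 4 of 8 in replicate 2. The median summit pileup, the number of fragments that overlap the summit, was 21 and 19, with list medians of 23 and 21. Pileup was above the list median for 8 of 20 peaks in replicate 1 and 3 of 8 in replicate 2. The median −log10 q was 3.29 and 3.14, with list medians of 3.94 and 3.77. Pileups were solved from the authors' values, and their exact Poisson 95% intervals, given below, cover counting error only. Of the member peaks, 2 of 20 in replicate 1 (10%) and 2 of 8 in replicate 2 (25%) overlapped a peak of the other list, where the shares over the whole lists were 25.7% and 38.4%.

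**Figure D2:**
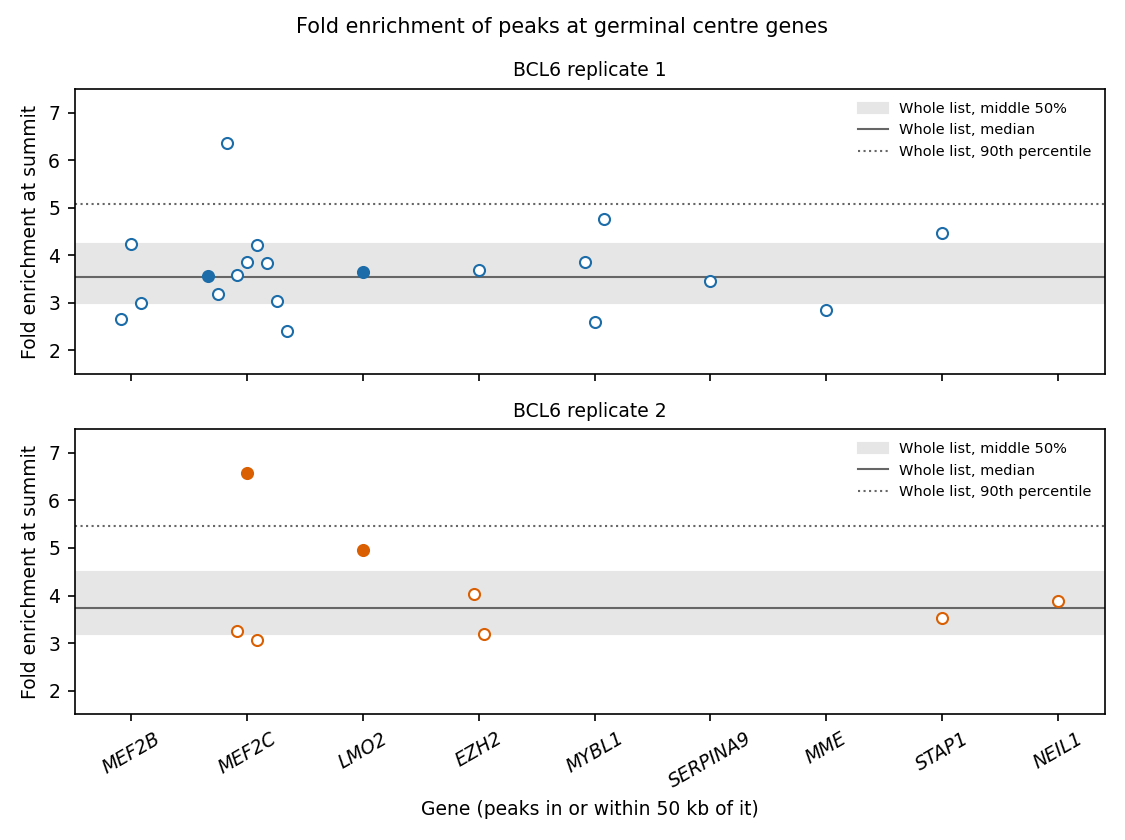
Fold enrichment at the summit (y axis) of each peak in or within 50 kb of the 9 genes (x axis), replicate 1 above and replicate 2 below, with filled points for peaks that overlap a peak of the other list. The grey band, solid line and dotted line are the middle 50%, the median and the 90th percentile of each whole list; 1 peak of each replicate, both at MEF2C, lies above the 90th percentile (5.08 and 5.47).

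Peaks with a summit within 1 kb of a listed transcription start are called promoter peaks. For LMO2 and MYBL1 either gene end was used in its place. By this rule 3 of the 9 genes had a peak in replicate 1, against 8.85% of all protein-coding genes, and 5 of the 9 in replicate 2, against 6.73%. The genes were MEF2B, MEF2C and LMO2 in replicate 1 and MEF2C, LMO2, EZH2, STAP1 and NEIL1 in replicate 2. A shared region met the rule at 1 of 9 genes, LMO2, against 2.84%. The LMO2 peaks counted here lay at its 3′ end and not at its promoter. Of the 7 genes with listed starts, 5 had a promoter peak in at least 1 list, against 13.5% of the 15813 protein-coding genes with a listed start. None had a shared region there, against 3.11%. These 7 genes have 19 listed starts, 7 of them at MEF2C. A gene with more starts has more places to meet the rule, and the shares are not adjusted for this. The promoters of 4 genes whose peak summit lay closest to the outermost listed start are shown with the 250 bases before that start, 5′ to 3′ in the direction of the gene, from RefSeq (GRCh38.p14). Capitals mark the bases that lie under a BCL6 peak.

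NEIL1, chr15:75346789-75347038, plus strand, replicate 2 peak over 234 of the 250 bases: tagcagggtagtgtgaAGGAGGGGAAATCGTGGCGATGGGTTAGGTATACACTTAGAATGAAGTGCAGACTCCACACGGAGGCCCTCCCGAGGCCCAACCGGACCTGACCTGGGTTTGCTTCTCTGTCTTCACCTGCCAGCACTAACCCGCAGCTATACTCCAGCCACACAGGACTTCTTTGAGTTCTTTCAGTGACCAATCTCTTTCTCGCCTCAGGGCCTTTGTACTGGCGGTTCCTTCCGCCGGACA

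STAP1, chr4:67558477-67558726, plus strand, replicate 2 peak beginning 47 bp beyond the shown bases: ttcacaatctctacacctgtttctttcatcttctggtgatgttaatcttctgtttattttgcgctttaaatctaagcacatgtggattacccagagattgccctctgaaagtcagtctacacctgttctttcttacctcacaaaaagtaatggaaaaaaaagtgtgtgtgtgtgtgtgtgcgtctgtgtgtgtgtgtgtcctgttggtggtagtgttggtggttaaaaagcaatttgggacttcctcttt

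EZH2, chr7:148884292-148884541, minus strand, replicate 2 peak 37 bp beyond the shown bases on the upstream side: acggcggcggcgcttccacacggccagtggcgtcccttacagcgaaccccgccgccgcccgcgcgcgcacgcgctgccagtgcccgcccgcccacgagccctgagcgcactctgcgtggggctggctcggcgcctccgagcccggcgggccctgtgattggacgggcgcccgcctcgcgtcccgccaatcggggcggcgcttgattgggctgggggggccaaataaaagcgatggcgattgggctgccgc

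MEF2B, chr19:19170264-19170513, minus strand, replicate 1 peak 139 bp from the shown bases on the gene side: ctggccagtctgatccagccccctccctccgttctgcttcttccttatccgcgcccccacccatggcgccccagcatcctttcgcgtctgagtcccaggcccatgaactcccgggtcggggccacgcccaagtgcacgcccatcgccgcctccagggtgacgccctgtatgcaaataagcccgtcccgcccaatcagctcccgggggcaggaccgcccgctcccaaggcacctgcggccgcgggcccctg

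These 4 stretches differ in composition, with a GC content of 55.2% for NEIL1, 40% for STAP1, 75.6% for EZH2 and 70% for MEF2B. The BCL6 core TTCCTNGAA and the looser TTCNNNGAA, searched on both strands, had no match in any of the 19 stretches of 250 bases before the listed starts of the 7 genes. The looser pattern includes the core. Over 22035 such stretches before starts of protein-coding genes, 1.18% held the core and 5.93% the looser pattern. The MEF2 motif and a looser form that includes it likewise had no match (0.136% and 2.06% of all stretches). The ETS core GGAAGT was present in 7 of the 19, against 20.5% of all. Some of the 19 stretches overlap one another, so they are not independent. In the STAP1 stretch above it lies on the other strand at bases 240 to 245, outside the peak. The only match under a BCL6 peak was before the NEIL1 start at 75347619, at bases 73 to 78, in replicate 2. These counts say only which letters the windows hold.

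Among the transcription factors, MEF2C had by far the most peaks. MEF2C, a MADS-box factor that acts in B cell activation, lies on chromosome 5 from 88717117 to 88904105 on the minus strand, and its listed starts are spread over 7 positions. Replicate 1 had 9 peaks in its window and replicate 2 had 3. At least 9 replicate 1 peaks were found at 0.451% of all protein-coding genes, and its window of 287 kb was the longest of the 9.

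The shared region of MEF2C was distal. It spans chr5:88675324-88676284, with its summit 41 kb below the lower end, which is the 3′ end of the gene. The region has its summit within 2 kb of an end of the antisense transcript MEF2C-AS2. Replicate 1 gave it a fold enrichment of 3.57 and a −log10 q of 4.65, with a pileup of 25 (16.2 to 36.9) over a background of 6.27. Replicate 2 gave 6.58 and 12.9, with a pileup of 30 (20.2 to 42.8) over a background of 3.71. The sizes of the 2 libraries are not given, and the difference in fold enrichment was not tested. The peaks overlapped by 372 bp, which is 72.4% of the replicate 1 peak and 45.4% of the replicate 2 peak, and their summits lay 640 bp apart. Each list had a further peak beside it, with a summit 39.1 kb from the gene in replicate 1 (fold enrichment 3.18) and 42.4 kb in replicate 2 (3.26).

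Inside MEF2C the lists differed. Replicate 1 had 7 summits inside the gene, of which 6 lay away from the listed starts, and replicate 2 had 1. The strongest in replicate 1 spans chr5:88732163-88732967, 15.4 kb from the 3′ end, with a fold enrichment of 6.37, a −log10 q of 13.5 and a pileup of 32 (21.9 to 45.2) over 4.18. It is at the 96.8th percentile of its list by fold enrichment, and the nearest replicate 2 summit was 56.4 kb away. The next 5 towards the start had fold enrichments of 3.58, 3.85, 4.21, 3.84 and 3.04, in order of position, and their summits lay between 88816329 and 88844914. Among them are the peaks 1.36 kb downstream and 1.81 kb upstream of the listed start at 88827192, each with a pileup of 28 (18.6 to 40.5). At the upstream starts each list had 1 peak, 2.88 kb from the other: in replicate 1 the summit lay 870 bp upstream of the start at 88884536 (fold enrichment 2.4), and in replicate 2 it lay 661 bp downstream of the start at 88883184 (3.07). Exons were not separated from introns, so "inside" covers both.

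Below MEF2C, further peaks were listed beyond the 50 kb limit. The farthest summit within the limit was that of the replicate 2 peak at 42.4 kb. Just outside the limit lay a shared region on chr5:88666648-88667500, with fold enrichments of 5.38 and 4.04. Its summits were 50.2 kb from the gene in replicate 1 and 50032 bp in replicate 2. It contains the microRNA gene MIR9-2. A second, on chr5:88661248-88661860 at 55.5 kb, had fold enrichments of 2.76 and 3.88.

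MEF2B, a related MADS-box factor known to drive BCL6 transcription and mutated in lymphoma, had peaks in replicate 1 alone. The gene lies on chromosome 19 from 19145567 to 19170263 on the minus strand and shares its body with the read-through gene BORCS8-MEF2B, so the 3 peaks belong to both. The peak beside the start had its summit 281 bp downstream of it, with a fold enrichment of 2.99, a −log10 q of 2.48 and a pileup of 20 (12.2 to 30.9) over 6.01. The other two lay inside the gene, 9.22 kb and 14.3 kb from the start. The nearer was the strongest of the 3, with a fold enrichment of 4.23 and a pileup of 24 (15.4 to 35.7). The farther had 2.66, with the highest local background of all member peaks in replicate 1, 11.8. At least 3 replicate 1 peaks were found at 3 of the 9 genes (MEF2B, MEF2C and MYBL1), against 4.89% of all protein-coding genes. The nearest replicate 2 peak to MEF2B was 492 kb away.

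MYBL1, which encodes the transcription factor A-MYB of dividing germinal centre B cells, also had peaks in replicate 1 alone, all 3 of them outside the gene. On chromosome 8, where the gene spans 66562175 to 66613218, the strongest lay from 66614616 to 66615298. Its summit was 1.91 kb above the upper end and within 2 kb of an end of the non-coding gene LOC105375884. MYBL1 is transcribed towards lower coordinates, so this peak was on its start side. Its fold enrichment was 4.76 and its −log10 q 12.3, and its pileup of 41 (29.4 to 55.6) over 7.82 was the highest among the member peaks. The other two lay below the gene, on its 3′ side, at 20.5 kb (fold enrichment 3.85) and 17.7 kb (2.6). No replicate 2 summit lay closer than 73.7 kb.

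LMO2, a LIM-only adaptor that bridges DNA-binding factors and a diagnostic marker of germinal centre lymphomas, had the shared region closest to a gene. The gene spans 33858576 to 33892076 on chromosome 11 and the region chr11:33857761-33858399, with summits 249 bp (replicate 1) and 340 bp (replicate 2) below its lower end. LMO2 is also transcribed towards lower coordinates, so this end is its 3′ end and not its promoter. The replicates gave fold enrichments of 3.65 and 4.96, and −log10 q of 3.18 and 4.63. The pileups were 17 (9.9 to 27.2) over a background of 3.93 and 15 (8.4 to 24.7) over 2.23, which places them at the 20.6th and 19.4th percentiles of their lists. The summits lay 91 bp apart, and the overlap of 305 bp was 48.4% of the replicate 1 peak and 97.1% of the replicate 2 peak. Neither list had another peak in the window of LMO2.

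**Figure D3:**
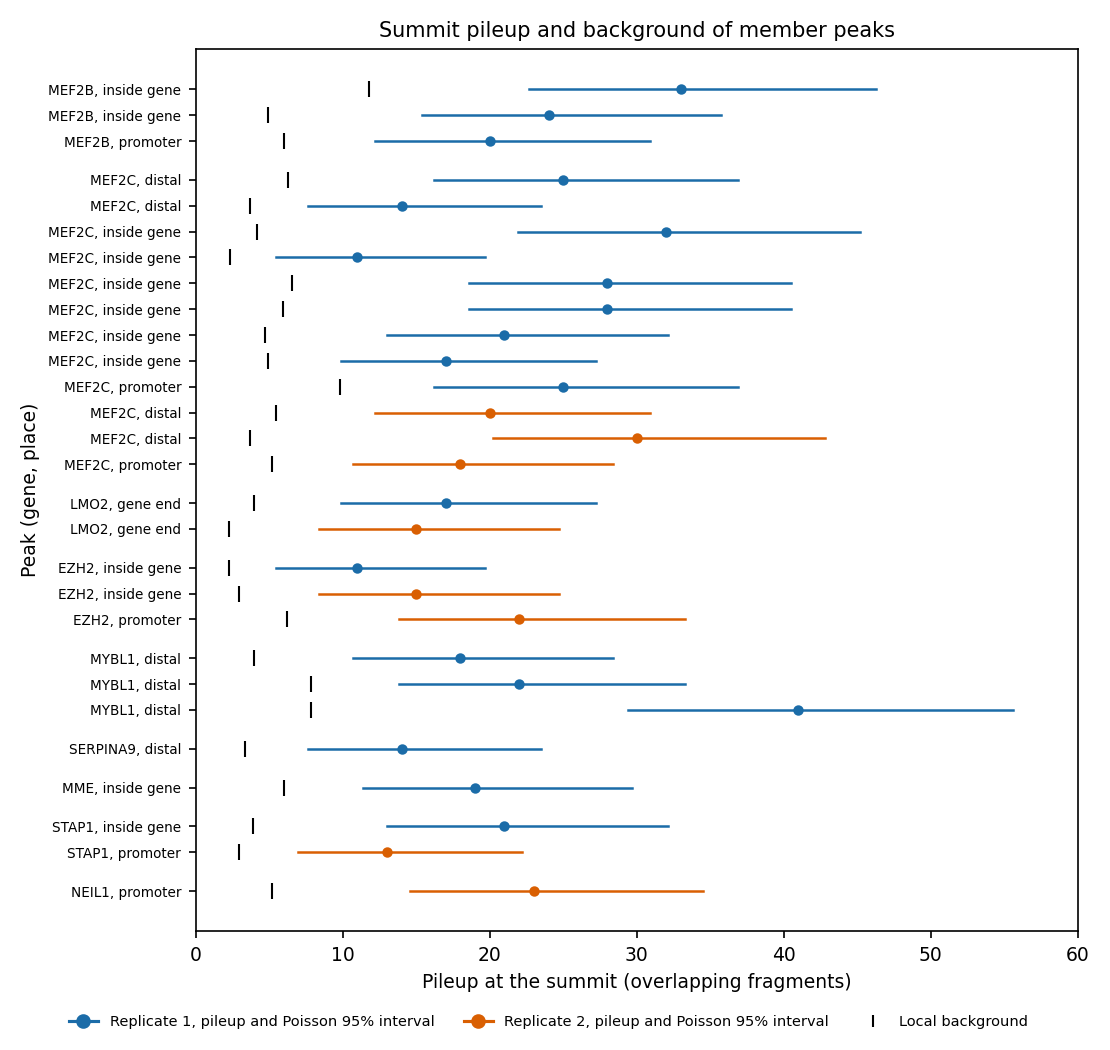
Summit pileup on the x axis (dots, with exact Poisson 95% intervals as lines) and local background (black ticks) of the 28 peaks, 1 per row and named by gene and place, in blue for replicate 1 and orange for replicate 2. Pileups range from 11 to 41 in replicate 1 and from 13 to 30 in replicate 2. The lower limit of each interval lies above the local background of that peak. Peaks were listed for exceeding that background, so this adds no evidence.

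EZH2, the histone H3 lysine 27 methyltransferase of Polycomb repressive complex 2, had 1 peak in replicate 1 and 2 in replicate 2. The gene lies on chromosome 7 from 148807383 to 148884291 on the minus strand. The replicate 2 promoter peak had its summit 362 bp upstream of the outer start, with a fold enrichment of 3.19, a −log10 q of 3.04 and a pileup of 22 (13.8 to 33.3) over 6.22. Inside the gene, replicate 1 had a summit 27.1 kb from the nearest start (fold enrichment 3.69, pileup 11, 5.49 to 19.7). Replicate 2 had one at 17.2 kb (4.03, pileup 15, 8.4 to 24.7). These summits lay 9.9 kb apart and the peaks did not overlap. Beyond the window, at 56.6 and 57.5 kb upstream, lay 2 shared regions, each with its summits within 2 kb of an end of the Y RNA gene RNY5. The first, chr7:148940466-148941234, had fold enrichments of 3.22 and 3.34, and the second, chr7:148941581-148941935, had 3.05 and 5.35.

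The genes for a surface and a secreted protein, MME and SERPINA9, had 1 peak each, both in replicate 1. MME encodes the endopeptidase CD10, the surface marker by which germinal centre B cells are commonly identified, and spans 155024202 to 155183729 on chromosome 3. Its single peak, in replicate 1, lay inside the gene 26.0 kb downstream of the nearest listed start, with a fold enrichment of 2.85, a −log10 q of 2.05 and a pileup of 19 (11.4 to 29.7) over 6.01. The nearest replicate 2 peak was 670 kb from the gene. SERPINA9, a serine protease inhibitor also called GCET1, spans 94462721 to 94476197 on chromosome 14 and had no summit inside it. Its single peak, in replicate 1, lay 9.35 kb upstream of the start with a fold enrichment of 3.47 and a pileup of 14 (7.65 to 23.5), and it was closer to SERPINA12, at 1728 bp.

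STAP1, an adaptor protein in signalling below the B cell receptor, had 1 peak in each list, 16.8 kb apart. In replicate 2 the summit lay 151 bp downstream of the start on chromosome 4 at 67558727, with a fold enrichment of 3.53, a −log10 q of 2.1 and a pileup of 13 (6.92 to 22.2) over 2.97. In replicate 1 it lay 16.9 kb into the gene, with 4.47, 5.63 and a pileup of 21 (13.0 to 32.1) over 3.92. NEIL1, a DNA glycosylase of base excision repair, had a replicate 2 promoter peak over the stretch printed above. Its summit was 38 bp upstream of the outer start on chromosome 15 at 75347039, with a fold enrichment of 3.88, a −log10 q of 4.73 and a pileup of 23 (14.6 to 34.5) over 5.19. The nearest replicate 1 peak lay 95.3 kb from NEIL1 and 3.43 kb from an end of SIN3A, with a fold enrichment of 2.66.

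A peak that is missing from a list does not show that the site was unoccupied. Whether such a site fell below the calling threshold in 1 library was not tested. The signal of each library at the peaks of the other was not used here. Of the member peaks, 6 of 20 in replicate 1 and 1 of 8 in replicate 2 had a −log10 q of at least 5, against 34.8% and 32.6% of all peaks in these lists. Neither shared region met that limit in both lists.

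A list of 22 other germinal centre genes gave a different balance between single and shared peaks. In it 20 genes had a replicate 1 peak within the window (90.9%, against 29.5% of all protein-coding genes) and 21 a replicate 2 peak (95.5%, against 23.3%). A shared region lay at 12 (54.5%, against 22.2% of the 9 genes and 10.2% of all). Ranked by the lower of both fold enrichments, the leading 4 were CXCR4, a chemokine receptor (9.35 and 8.47, 8.73 kb outside the gene), BCL6 itself (6.38 and 11.5, 132 bp outside), RGS13, a regulator of G protein signalling (6.07 and 4.33, 33.1 kb outside), and CD38, a surface ectoenzyme (4.16 and 4.85, 359 bp outside). The lower value of these 4 was above those of LMO2 (3.65) and MEF2C (3.57), and that of the other 8 genes, from 2.12 to 3.55, was below them. Of 12 genes high in activated B-cell-like lymphoma, the other main subtype, 5 had a replicate 1 peak and 5 a replicate 2 peak (41.7% each). A shared region lay at 4 of them (33.3%, against 22.2% of the 9 genes and 10.2% of all). The strongest were at LIMD1 (4.39 and 5.97) and FOXP1 (4.06 and 4.1). The difference between these lists was not tested, since the genes were chosen with earlier results of these data known.

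**Figure D4:**
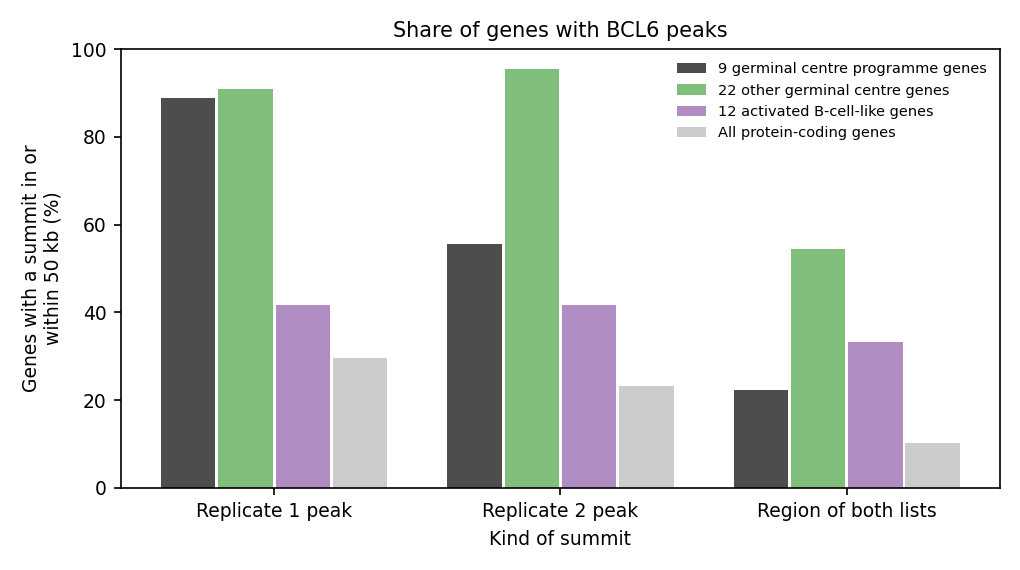
Share of genes (y axis, %) with a summit in the gene or within 50 kb, for replicate 1 peaks, replicate 2 peaks and shared regions (x axis), in 3 gene lists and in all 19974 protein-coding genes. The 9 genes stand at 88.9%, 55.6% and 22.2%, and all protein-coding genes at 29.5%, 23.3% and 10.2%.

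Peak lists hold occupancy and no expression, so they do not test the identity of the cells. By the same window, shared regions lay at 2 of 6 B cell markers (CD22 and CD79B), 4 of 6 T cell markers and 1 of 6 myeloid markers (CD68), against 10.2% of all protein-coding genes. The T cell markers were CD3D, CD3E and CD3G, which lie side by side and share 1 region, and LCK.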

How the data were processed

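BCL6 and IgG CUT&RUN of SUDHL5 nuclei was grouped by sample title, with 2 replicates each. Per the submitters' processing notes, MACS2 is among the tools used, along with cutadapt, Bowtie2, Picard and SAMtools, and the build is hg38. Settings and the peak caller's control are not given in the sources consulted. Library sizes are not given either, so the depth is known only through the pileup at each summit. The labels' protocols give 500000 nuclei per reaction and 14 PCR cycles. Peaks were called per sample. The deposited columns are the authors' fold enrichment (a ratio), −log10 p, −log10 q and the summit offset. A deposited score column, 10 times −log10 q, was not used. Every deposited −log10 q was 1.31 or higher.

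The whole-number summit pileup and background were solved from fold = (pileup + 1) / (background + 1) and the Poisson p above the pileup, to within 0.001 for all 5230 and 3529 peaks on chromosomes 1 to 22 and X. The solver was tested on simulated peaks. Shared regions joined peaks of both lists with at least 1 bp in common, with the summit taken from the peak of highest −log10 q. Gene ends came from a RefSeq table and starts from RefSeq promoter entries, both GRCh38.p14. Exons were not used, and the direction of LMO2 and MYBL1 is textbook knowledge. No genome sequence was used, so sequence under the distal peaks is not shown.

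Counts of genes were set beside the share of all protein-coding genes under the same rule, with no test. All 9 genes are named whatever their values, with up to 4 of the other germinal centre genes and up to 2 of each further list by the smaller fold enrichment of both lists (all genes of a count of 5 or fewer among the markers). The members and lists were chosen with earlier results of these data known. Alternatives covered window, overlap rule, −log10 q, promoter distance and each replicate alone. Python 3.11.15, NumPy, pandas and SciPy were used.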

Additional observations from a re-analysis of the deposited data

How the results depend on the processing

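The number of the 9 genes with a shared region, 2 in the text, was 1 with a window of 10 kb (LMO2, against 5.78% of all protein-coding genes) and 3 with 100 kb (LMO2, MEF2C and EZH2, against 15.1%). It was 1 with summits within 200 bp (LMO2), and 0 with a reciprocal overlap of at least 50%, with a −log10 q limit of 5, and with a limit of 10. The number of shared regions, 2 in the text, was 1, 6, 1, 0, 0 and 0 in the same order. The shared region near a start or end, 1 gene in the text (LMO2), remained 1 gene within 500 bp, within 2 kb and with summits within 200 bp. It was 0 with reciprocal overlap, 0 with either −log10 q limit, and 0 with listed starts only, a setting chosen after seeing the data. With 1 list in place of both, 5 (without replicate 1) to 8 (without replicate 2) genes had a peak in the window, with 8 to 20 peaks, and 3 to 5 genes had one near a start or end, LMO2 among them in each list. The strict settings keep fewer peaks by construction. Taking the peak with the highest −log10 q left the fold enrichments of the LMO2 and MEF2C regions as they were, since each held 1 peak per list. No paired analysis was possible because peak lists of 1 group alone were used.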
